A study of Mus musculus with 2 samples.

Results

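Oxidative phosphorylation subunit genes were followed through the immune cells of a mouse tumour. The genes were taken as the mouse features whose symbol begins with Ndufa, Ndufb, Ndufc, Ndufs, Ndufv, Sdh, Uqcr, Cox4i, Cox5, Cox6, Cox7, Cox8 or Atp5, and which had at least 10 UMIs (counted transcript molecules) in the annotated cells. Of 33696 mouse genes, 101 features matched by symbol and 97 passed: 38 of complex I, 4 of complex II, 8 of complex III, 18 of complex IV, 17 of complex V and 12 assembly factors that the symbols also take in. The 4 left out were Ndufb11b, Cox8b and Cox8c, each at 0 UMIs, and Cox7b2 with 1 UMI. The 13 protein-coding genes of the mitochondrial genome, named mt-, are given beside them and are not counted among the 97.

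Mice carrying human Fc gamma receptors were implanted under the skin with 2000000 cells of MC38, a mouse colon carcinoma line. They received 2 injections, 3 days apart, of 100 µg human IgG1 antibody against mouse GITR, a costimulatory receptor of T cells, and CD45+ tumour cells were sorted 4 days after treatment. By their labels, the non-agonist GITR/Syn GA-aFuc had an enhanced Fc part, GA-aFuc was an agonist that also had one, and N297A was an agonist with a null Fc. The control was labelled both PBS and Untreated. The design names 3 mice per treatment, while the 6 hashtags of the library gave 2 Untreated and 2 N297A mice, with 1 mouse for GA-aFuc and 1 for GITR/Syn GA-aFuc. All groups share the human receptors and the tumour line, and the strain and age of the mice are not given in the sources used here. The lone mouse of each Fc-enhanced antibody was assumed to vary like the other mice. All 6 mice passed through 1 library, in which they were told apart by their hashtags.

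Complexes I to IV of the inner mitochondrial membrane pass electrons from NADH and succinate to oxygen and, except for complex II, pump protons. Complex V, the ATP synthase, uses the proton gradient to make ATP. Most subunits are encoded in the nucleus and a small core in mitochondrial DNA, so that the holoenzymes need both sets, and only complex II is wholly nuclear encoded. Several complex IV subunits come in tissue isoforms, such as the heart and muscle forms COX6A2 and COX7A1 and the hypoxia-responsive COX4I2. NDUFA4, once assigned to complex I, is a complex IV subunit whose place can be taken by the product of AA467197, the mouse gene for NMES1.

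The 8716 cells used held 110128022 mouse UMIs, between 16479710 and 19339165 per mouse, with a median of 11259 to 12940 UMIs per cell. The members held 2320470 UMIs, or 21071 counts per-million mouse UMIs (CPM), and the mt- genes 1916500 UMIs, or 17402 CPM. No cell had more than 5.52% of its UMIs on mt- genes. The deposited cell table listed 34 barcodes more than once. Marker lists were highest in the type of their name for macrophages, CD8 T cells, NK cells, Tregs, cDC1, mregDC and pDC. The monocyte list was higher in pDC (9170 CPM) than in monocytes (5889), the cDC2 list in pDC (1075) than in cDC2 (895), and the CD4 T cell list in Tregs (3986) and CD8 T cells (2888) than in CD4 T cells (2808). Tumour and epithelial markers came to at most 56.3 CPM in any type and muscle markers to at most 10.6. Endothelial markers reached 385 CPM in pDC and erythroid markers 115 in monocytes. The CD8 T cell list stood at 963 in pDC, against 283 in NK cells. Neutrophil, B cell and fibroblast markers came to at most 61.1, 30.9 and 27.5. Free RNA, taken from 163454 barcodes with 10 to 100 mouse UMIs, held the members at 30408 and the mt- genes at 37672 CPM, above their mean in each cell type. Its part in the results below was not tested. Each value is a share of a cell type's UMIs, so a low share of a member and a high share of other RNA cannot be told apart.

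Levels over all cells are given first, by complex. Counts are of 3′ ends and are not divided by length, so the order of genes within a complex is one of counted molecules. In complex I, the NADH dehydrogenase, Ndufb1 (427 CPM over all cells), Ndufa13 (361) and Ndufa2 (331) led. In complex II, succinate dehydrogenase, Sdhb, the iron-sulfur subunit, stood at 163 CPM, the membrane anchor Sdhd at 84.4, the flavoprotein Sdha at 71.1 and the second anchor Sdhc at 60.4. In complex III, which oxidises ubiquinol, Uqcrh (447), Uqcrq (354) and Uqcrb (316) led. In complex IV, cytochrome c oxidase, Cox8a (871), Cox4i1 (770) and Cox7c (669) led, and in complex V Atp5e (893), Atp5l (571) and Atp5j2 (482). Assembly factors were lower, with Ndufaf8 at 75.6, Sdhaf2 at 40.3 and Sdhaf4 at 35.5 CPM.

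Promoter windows from RefSeq (build GRCm38.p6, 250 bases before to 50 bases after the start) were found for 80 of the 97 members. They were searched on both strands for sequences bound by factors known to act on respiratory genes. GCATGCGC, the NRF1 sequence, was in 12 of the 80 (15%, against 2.80% of 27025 promoters of the same length). AAGATGGC, for YY1, was in 10 (12.5% against 2.88%), CCGGAAGT, for GABP and other ETS factors, in 5 (6.25% against 4.00%) and TCAAGGTCA, for ERR alpha, in 2 (2.50% against 0.407%). At least 1 of the 4 was in 28 (35.0% against 9.55%). The members' windows were also richer in GC (median 58.8% against 52.7%) and in CpG (median 20 against 7), a difference that is not corrected for in these shares. A match is a description of letters and not a binding site. Of the windows shown, Ndufa4 (chr6:11907401-11907700, minus strand) belongs to the member with the smallest adjusted p between CD8 T cells and macrophages, and Uqcrh (chr4:116075021-116075320, minus strand) and Uqcr11 (chr10:80406772-80407071, minus strand) to complex III members with opposite differences. Cox6a1 (chr5:115348909-115349208, minus strand) is the broadly expressed partner of the isoform Cox6a2. Capitals mark matches: an ETS sequence in Uqcrh, an ETS and then an NRF1 sequence in Uqcr11, and overlapping NRF1 sequences of both strands in Cox6a1. None of the 4 was found in this window of Ndufa4.
Ndufa4: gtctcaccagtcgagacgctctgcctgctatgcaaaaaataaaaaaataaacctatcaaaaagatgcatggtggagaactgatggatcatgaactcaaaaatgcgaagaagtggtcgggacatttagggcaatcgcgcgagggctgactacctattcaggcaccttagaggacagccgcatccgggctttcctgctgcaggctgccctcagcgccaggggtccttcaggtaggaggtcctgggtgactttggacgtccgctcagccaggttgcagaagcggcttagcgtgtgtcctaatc
Uqcrh: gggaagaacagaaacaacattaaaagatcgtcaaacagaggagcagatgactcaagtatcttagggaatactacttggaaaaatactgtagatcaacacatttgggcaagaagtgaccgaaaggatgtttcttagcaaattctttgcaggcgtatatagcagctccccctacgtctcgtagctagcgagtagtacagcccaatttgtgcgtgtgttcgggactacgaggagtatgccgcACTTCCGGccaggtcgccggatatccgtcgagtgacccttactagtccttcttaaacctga
Uqcr11: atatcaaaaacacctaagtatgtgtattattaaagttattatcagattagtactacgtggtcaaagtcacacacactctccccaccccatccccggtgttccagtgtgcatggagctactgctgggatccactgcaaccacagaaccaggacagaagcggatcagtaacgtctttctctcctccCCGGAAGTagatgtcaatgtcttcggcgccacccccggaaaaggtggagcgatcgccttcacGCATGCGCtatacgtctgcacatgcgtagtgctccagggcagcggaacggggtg
Cox6a1: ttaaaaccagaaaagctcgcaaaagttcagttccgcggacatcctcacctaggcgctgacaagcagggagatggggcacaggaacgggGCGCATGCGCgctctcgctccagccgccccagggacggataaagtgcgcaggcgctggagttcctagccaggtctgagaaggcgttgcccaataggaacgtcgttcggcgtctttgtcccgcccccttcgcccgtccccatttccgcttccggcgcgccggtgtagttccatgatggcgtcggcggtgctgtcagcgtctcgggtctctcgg

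The summed members held between 18852 and 23705 CPM on average in the main cell types, while the mt- genes spread more widely. CD8 T cells had the highest nuclear sum of the 5 types with enough cells for a test, at 23705 ± 662 CPM (SD, n = 6 mice; lowest 22766, median 23996, highest 24422). NK cells followed at 22133 ± 355 (21465, 22233, 22495), macrophages at 21477 ± 1038 (20125, 21645, 22541), cDC2 at 20308 ± 1974 (18441, 20001, 23670) and monocytes at 18852 ± 815 (17651, 18855, 20111). The lowest CD8 mouse lay above the highest NK mouse and the highest macrophage mouse. Macrophage and NK values overlapped, and cDC2 values overlapped those of all the other 4 types. Macrophages and monocytes did not overlap, though the lowest macrophage mouse (20125) and the highest monocyte mouse (20111) lay close.

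The mt- sums ranked the types otherwise. Macrophages had 19704 ± 752 CPM (18523, 19864, 20430), NK cells 18115 ± 350 (17659, 18092, 18522), CD8 T cells 16203 ± 1146 (14169, 16412, 17248), cDC2 13105 ± 1175 (11248, 13513, 14224) and monocytes 12217 ± 920 (10640, 12330, 13104). Macrophages thus had 0.919 mt- UMIs per nuclear member UMI, NK cells 0.819, CD8 T cells 0.683 and monocytes 0.649. Relative to UMIs outside ribosomal protein genes, the mean mt- sum was higher in NK cells (24068 CPM) than in macrophages (23351). Ribosomal protein genes held 247314 CPM in the pooled counts of NK cells and 156279 in those of macrophages. The order of macrophages and NK cells on the mt- sums thus depends on which UMIs the share is taken of. Among the types with fewer cells, cDC1 (47 cells) reached 24786 ± 641 on the members and 19217 ± 1506 on the mt- genes. The 21 pDC had the highest mt- sum, 24737 ± 3397, with 23089 ± 3104 on the members. Mature mregDC were low on both, at 17511 ± 1205 and 11455 ± 2833. Each mouse gave few cells of these types: 6 to 10 cDC1, 1 to 7 pDC and 6 to 13 mregDC. Nuclear sums were higher in deeper cells of the 4 types examined: from the third of macrophages with the fewest UMIs to the third with the most, the members went from 20250 to 22340 CPM, in CD8 T cells from 20788 to 25105, in NK cells from 19639 to 23134 and in monocytes from 18061 to 19306. The monocyte mt- sum did not follow this order, at 12372, 10918 and 12799 from the shallowest to the deepest group.

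**Figure D1:**
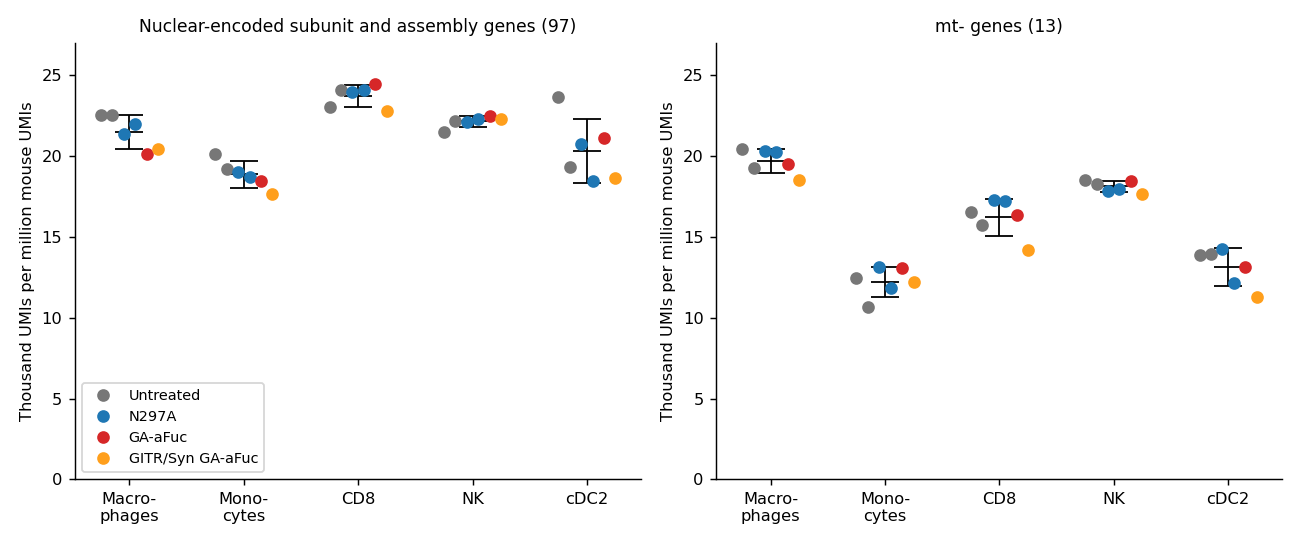
CPM (vertical axis, in units of 1000) for the summed 97 members (left) and the 13 mt- genes (right) in 5 cell types, 1 point per mouse coloured by treatment, with mean and SD over 6 mice as bars. The left panel spans 17651 to 24422 CPM over all types and mice, while on the right monocytes (12217 on average) and macrophages (19704) lie far apart.

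Tumour macrophages were compared with monocytes, from which many of them derive. Of 94 members tested, 38 were higher in macrophages and 9 lower, with a median log2 difference of 0.14 against -0.03 over all 10314 genes (edgeR quasi-likelihood test with mouse as a block, Benjamini-Hochberg adjusted p under 0.05). Over all genes 24.5% were higher and 30.7% lower. Without a scaling factor the counts were 60 and 3, a setting that moves the median of all genes from -0.03 to 0.10. The number lower was 5 without the first Untreated mouse or without either N297A mouse. By complex, higher and lower members numbered 20 and 3 of 37 in complex I, 1 and 0 of 4 in complex II, 2 and 2 of 8 in complex III, 3 and 1 of 16 in complex IV, 6 and 1 of 17 in complex V, and 6 and 2 of 12 assembly factors. Log2 differences are taken after TMM scaling and so differ from the ratio of the CPM values. All 13 mt- genes were higher in macrophages, by 0.42 to 0.65 on the log2 scale.

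Among complex I genes, Ndufab1, the mitochondrial acyl carrier protein, had the largest difference in favour of macrophages. It lay between 160 and 185 CPM in macrophages (median 177) and between 105 and 128 in monocytes (median 109), without overlap (log2 difference 0.50, SE 0.08, adjusted p = 9.2e-07). Ndufb1, an accessory subunit, was lower in macrophages, at 404 to 451 against 458 to 524 (log2 difference -0.33, SE 0.07, adjusted p = 3.6e-05). Of complex II, Sdhb was higher, at 182 ± 10.0 against 142 ± 9.49 CPM (log2 difference 0.22, SE 0.06, adjusted p = 0.002), and Sdha, Sdhc and Sdhd did not pass. In complex III, Uqcr10 was at 320 CPM in macrophages and 242 in monocytes (log2 difference 0.27), while Uqcrfs1, the Rieske iron-sulfur protein, was at 101 and 109 (log2 difference -0.23, adjusted p = 0.003), a call lost without a scaling factor (-0.10) and without the filter (-0.17). The largest differences lay in complex IV. Cox4i2 was higher in macrophages, at 20.8 ± 2.70 against 9.91 ± 3.20 CPM (log2 difference 0.96, SE 0.14, adjusted p = 5.5e-07), and Ndufa4 was lower, at 110 ± 12.8 against 157 ± 20.9 (log2 difference -0.64, SE 0.08, adjusted p = 3.5e-09). In every mouse the macrophage value of Cox4i2 exceeded the monocyte value and that of Ndufa4 fell short of it.

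In complex V, Atp5g2, one of the genes for the proton-carrying c ring, was at 467 ± 29.8 CPM in macrophages and 331 ± 18.4 in monocytes (log2 difference 0.37, SE 0.06, adjusted p = 3.0e-06), and Atp5md, a small subunit of the membrane part, at 280 and 312 (log2 difference -0.29). The values of Atp5g2 did not overlap between the types, at 425 to 502 against 302 to 350. Of the assembly factors, Ndufaf6 was at 13.2 against 7.81 CPM (log2 difference 0.63, adjusted p = 0.00038) and Ndufaf7 at 11.5 against 12.9 (log2 difference -0.29, adjusted p = 0.036), a call lost in 11 of the alternatives tried. Of the mt- genes, mt-Co1, the catalytic subunit of complex IV, was at 4348 against 2800 CPM (log2 difference 0.50, SE 0.05, adjusted p = 1.0e-10) and mt-Nd4l of complex I at 129 against 76.1 (log2 difference 0.65, SE 0.08, adjusted p = 1.6e-09). Cell cycle genes also differed between these types, with 20 of 20 higher in macrophages, and their part in the member differences was not tested.

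**Figure D2:**
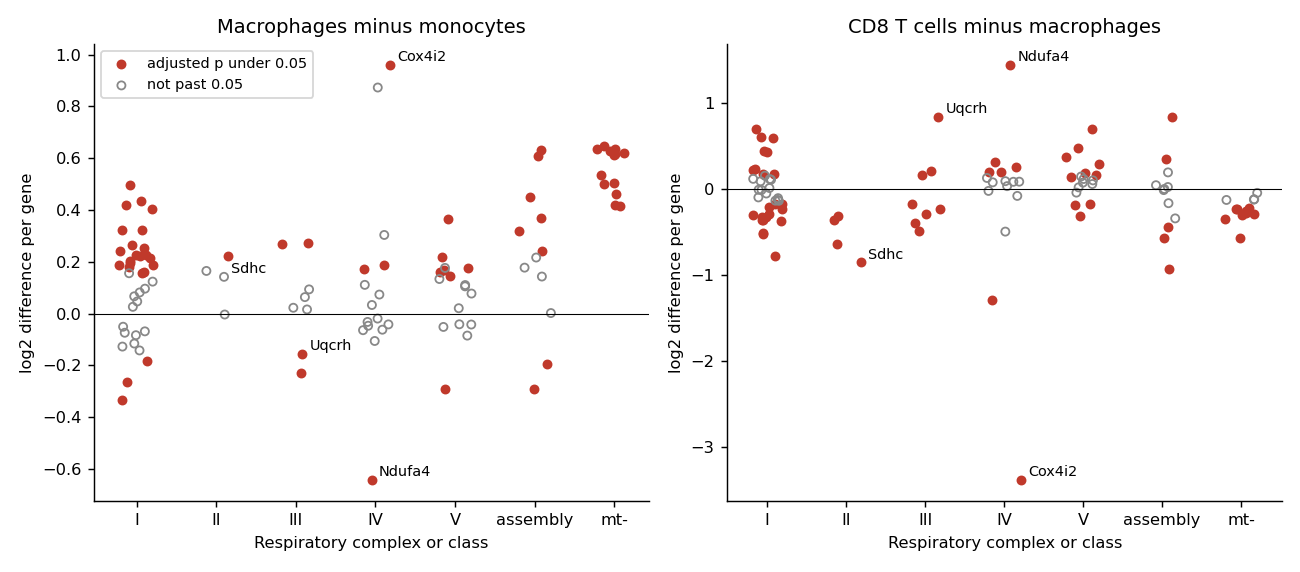
Log2 difference (vertical axis) of each tested member by complex, with the assembly factors and the 13 mt- genes, for macrophages minus monocytes (left) and CD8 T cells minus macrophages (right). Filled points passed an adjusted p of 0.05, and Cox4i2 (0.96 and -3.38) and Ndufa4 (-0.64 and 1.45) lie at the extremes of both panels.

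Between CD8 T cells and macrophages, members differed in both directions. Of 94 members, 26 were higher in CD8 T cells and 31 lower, with a median log2 difference of 0.01, the same to 2 decimals as that of all genes. Over all genes 36.5% were higher and 36.3% lower. Without a filter on low counts, which moves the median of all genes from 0.01 to -0.26, the counts were 12 and 40, and without the GA-aFuc mouse the number higher was 17. Complex II was lower in CD8 T cells in all 4 subunits. Sdhc was at 38.9 ± 5.54 against 67.6 ± 4.13 CPM (log2 difference -0.85, SE 0.11, adjusted p = 4.2e-09), with the highest CD8 mouse at 46.0 and the lowest macrophage mouse at 62.0. Sdhd was at 60.8 against 91.0 (log2 difference -0.64), Sdha at 60.5 against 76.4 (log2 difference -0.36, adjusted p = 0.00086, lower in 5 of 6 mice) and Sdhb at 151 against 182 (log2 difference -0.31).

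Complexes III and V held members of both directions, as did all genes in this comparison (36.5% higher and 36.3% lower). Uqcrh, the hinge protein of complex III, was at 742 ± 34.4 CPM in CD8 T cells and 401 ± 14.1 in macrophages (log2 difference 0.84, SE 0.06, adjusted p = 6.5e-17), and the ranges, 678 to 770 and 374 to 414, lie far apart. Uqcr11, a small subunit of the same complex, went the other way, at 209 ± 7.68 against 283 ± 15.3 (log2 difference -0.49, SE 0.07, adjusted p = 2.0e-07). Of the 8 complex III genes 3 were higher and 5 lower. In complex V, 7 were higher and 3 lower of 17. Atp5d, the delta subunit of the ATP synthase's central stalk, was at 471 against 281 CPM (log2 difference 0.69, SE 0.06, adjusted p = 6.2e-14), and Atp5g1, another c-ring gene, at 290 against 349 (log2 difference -0.31, adjusted p = 0.0025). In complex I, 9 were higher and 14 lower of 37, with Ndufb7 at 393 against 233 (log2 difference 0.70), Ndufa13 at 540 against 343 (0.61) and Ndufc2 at 168 against 277 (-0.78, SE 0.07, adjusted p = 6.4e-13). Ndufc2 ranged from 153 to 181 in CD8 T cells and from 255 to 304 in macrophages.

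In complex IV, 5 members were higher in CD8 T cells and 2 lower of 16, and the 2 lower ones were the isoforms Cox4i2 and Cox7a1. Ndufa4 stood at 311 ± 32.3 against 110 ± 12.8 CPM (log2 difference 1.45, SE 0.08, adjusted p = 1.3e-19). Cox4i2 stood at 2.14 ± 1.28 against 20.8 ± 2.70 (log2 difference -3.38, SE 0.29, adjusted p = 4.1e-13), and Cox7a1 at 3.69 ± 1.74 against 8.55 ± 0.854 (log2 difference -1.28, SE 0.24, adjusted p = 1.0e-05). Cox7c, a structural subunit, was higher in CD8 T cells (841 against 652, log2 difference 0.32). Of the assembly factors, Ndufaf7 was at 21.4 against 11.5 (log2 difference 0.84) and Ndufaf6 at 7.22 against 13.2 (-0.93), 2 and 3 of 12 in each direction. None of the 13 mt- genes was higher and 9 were lower in CD8 T cells, mt-Co1 most, at 3023 against 4348 CPM (log2 difference -0.57, SE 0.05, adjusted p = 1.0e-12).

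Next, both cytotoxic lymphocyte types were compared. Of 94 members, 19 exceeded their NK cell level in CD8 T cells and 7 fell short of it (15.4% and 15.2% of all genes), with a median log2 difference of 0.02 against 0.01 over all genes. The counts were 20 and 4 with DESeq2 size factors and 24 and 4 without a scaling factor. The number higher was 11 without the second Untreated mouse and to 8 without the first N297A mouse. The number lower was 4 without the second N297A mouse and 4 without the GITR/Syn GA-aFuc mouse. Ndufv3, a small subunit of the NADH-binding arm of complex I, was at 251 ± 18.5 CPM in CD8 T cells and 180 ± 9.83 in NK cells (log2 difference 0.44, SE 0.07, adjusted p = 1.4e-06). Ndufs4, an accessory subunit of the same arm, was at 160 ± 13.4 against 202 ± 20.6 (log2 difference -0.38, SE 0.07, adjusted p = 8.5e-05). Uqcrh was again higher in CD8 T cells, at 742 against 594 (log2 difference 0.29, adjusted p = 0.00014), as were Sdhb (151 against 117, log2 difference 0.33), Cox7c (841 against 707, 0.21), Atp5md (374 against 303, 0.26) and Ndufaf3 (29.9 against 21.3, 0.46). Cox7a2, the common partner of Cox7a1, was lower, at 480 against 545 (-0.22), with Ndufaf2 at 43.5 against 59.3 (-0.48) and Sdhc at 38.9 against 48.0 (-0.35, adjusted p = 0.048). The Sdhc call was lost in 8 of the alternatives tried, that of Ndufaf3 without either Untreated mouse (0.39 and 0.37), that of Cox7c without the first N297A mouse (0.17) and that of Cox7a2 without the GITR/Syn GA-aFuc mouse (-0.18). Cox4i2 had 17 UMIs in CD8 T cells and 2 in NK cells (adjusted p = 0.023), and no fold is given. The mt- genes were lower in CD8 T cells for 10 of 13 and higher for 0, with mt-Nd5 at 266 against 351 (log2 difference -0.45, SE 0.07, adjusted p = 5.9e-06).

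Between dendritic cells of type 2 (cDC2) and monocytes, 21 members were higher in cDC2 and 5 lower (15.8% and 22.8% of all genes), with a median log2 difference of 0.09 against -0.10 over all genes. The counts were 30 and 3 with DESeq2 size factors and 31 and 3 without mt- and ribosomal protein genes. With no filter on low counts they turned to 5 and 12, a setting that moves the median of all genes from -0.10 to -0.30. Cox7a2l, a factor of respiratory supercomplexes, was at 329 ± 9.27 CPM in cDC2 (320 to 344) and 213 ± 9.06 in monocytes (200 to 227), without overlap (log2 difference 0.61, SE 0.07, adjusted p = 4.0e-09). Sdhb was lower, at 93.6 ± 16.1 against 142 ± 9.49 (log2 difference -0.60, SE 0.10, adjusted p = 2.1e-06). Ndufb11 (183 against 128, log2 difference 0.48), Atp5d (329 against 265, 0.30), Uqcrh (473 against 408, 0.20) and Ndufaf7 (26.9 against 12.9, 1.10) were higher. Ndufs3, part of the quinone-reducing module of complex I, was lower (53.3 against 77.1, -0.51), and so was Cox7a2 (350 against 414, -0.26). The Cox7a2 call was lost in 5 alternatives, among them DESeq2, DESeq2 size factors and leaving out the second Untreated or the GITR/Syn GA-aFuc mouse. The Uqcrh call was lost without the filter (log2 difference 0.05) and without the second Untreated mouse (0.16), and the Atp5d call without the filter (0.16). Cox4i2 had 0 UMIs in 200 cDC2, against 9.91 ± 3.20 CPM in monocytes (adjusted p = 1.1e-05), and no fold is given. Of the mt- genes, 2 were higher and 0 lower.

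Ndufa4 had its highest levels in cDC1 and pDC and its lowest in macrophages. Its mean was 495 ± 49 CPM in cDC1 (430 to 557), 398 ± 37.0 in pDC (342 to 445), 319 ± 54.5 in NK cells (225 to 385), 313 ± 83.9 in CD4 T cells (212 to 422), 311 ± 32.3 in CD8 T cells (263 to 364), 271 ± 87.5 in Tregs (156 to 362), 157 ± 20.9 in monocytes (134 to 192), 147 ± 30.5 in cDC2 (109 to 201), 146 ± 63.4 in mregDC (98.3 to 249) and 110 ± 12.8 in macrophages (100 to 135). The smaller types had few cells per mouse: 1 to 7 pDC, 3 to 24 Tregs and 6 to 10 cDC1. There were 6 to 13 mregDC and 12 to 24 CD4 T cells. NK and CD8 values overlapped (log2 difference of CD8 minus NK -0.07, SE 0.08, adjusted p = 0.61), and so did monocyte and cDC2 values (cDC2 minus monocytes -0.11, SE 0.11, adjusted p = 0.45). AA467197, which is no member and was looked at after its values were known, had a different order. It was at 939 ± 163 CPM in monocytes (696 to 1174), 704 ± 335 in mregDC (365 to 1137), 511 ± 103 in macrophages (334 to 619), 503 ± 112 in cDC2, 283 ± 78.0 in NK cells, 256 ± 258 in Tregs, 229 ± 29.6 in CD8 T cells, 199 ± 128 in CD4 T cells, 64.7 ± 56.6 in cDC1 and 13.2 ± 14.5 in pDC. Its macrophage level was under that of monocytes (-1.01 on the log2 scale, SE 0.11, adjusted p = 1.3e-08), and CD8 T cells below macrophages (-1.20, SE 0.12, adjusted p = 8.2e-10). Of the UMIs of both genes together, AA467197 held 82.3% in macrophages, 85.4% in monocytes and 84.7% in mregDC, then 77.6% in cDC2, 50.6% in Tregs, 48.2% in NK cells, 42.1% in CD4 T cells, 41.9% in CD8 T cells, 12.7% in cDC1 and 4.60% in pDC. Atpif1, the inhibitor of the ATP synthase and also no member, was highest in cDC1, at 904 ± 181 CPM (711 to 1121) against 352 ± 62.2 in cDC2 and 339 ± 21.6 in macrophages.

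The tissue isoforms of complex IV stayed low in the main cell types, and Cox6a2 was high in pDC. Cox6a2, the heart and muscle form, held 238 UMIs in 18 of the 21 pDC, or 1118 CPM in their pooled counts. The 6 mice stood at 1772 and 1369 (Untreated), 2177 and 532 (N297A), 504 with GA-aFuc and 1804 with GITR/Syn GA-aFuc. These values come from 1, 4, 2, 7, 3 and 4 cells in that order. It made up 81.0% of the Cox6a1 and Cox6a2 UMIs of pDC (exact binomial 95% interval 76.0% to 85.3%, counting error only). With each cell thinned to 2000 UMIs, 13 of 21 pDC had a Cox6a2 UMI (61.9%, unthinned 85.7%), against 1.32% of macrophages (unthinned 10.5%), whose median depth was 15222 UMIs against 10160 in pDC. In the other types pooled levels were 8.12 CPM or less, and free RNA held 24.7. Muscle markers were at 4.70 CPM in pDC. Cox4i2 UMIs were 2.62% of those of Cox4i1 and Cox4i2 in macrophages, against 1.35% for monocytes, 0.231% for CD8 T cells and 0.0337% for NK cells. After thinning, 3.57% of macrophages and 1.78% of monocytes had a Cox4i2 UMI (18.3% and 6.56% unthinned), and 0 of 723 NK cells did, although 2 had a UMI before thinning. Free RNA held Cox4i2 at 13.4 CPM, between the monocyte and macrophage levels, and its part in these shares was not tested. Cox6b2, known from testis, was at 9.84 ± 5.64 CPM in cDC2, 4.95 ± 1.23 in monocytes and 1.46 ± 0.486 in macrophages. Ndufa4l2, a relative of Ndufa4, had 12 UMIs in all macrophages and 8 in monocytes.

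**Figure D3:**
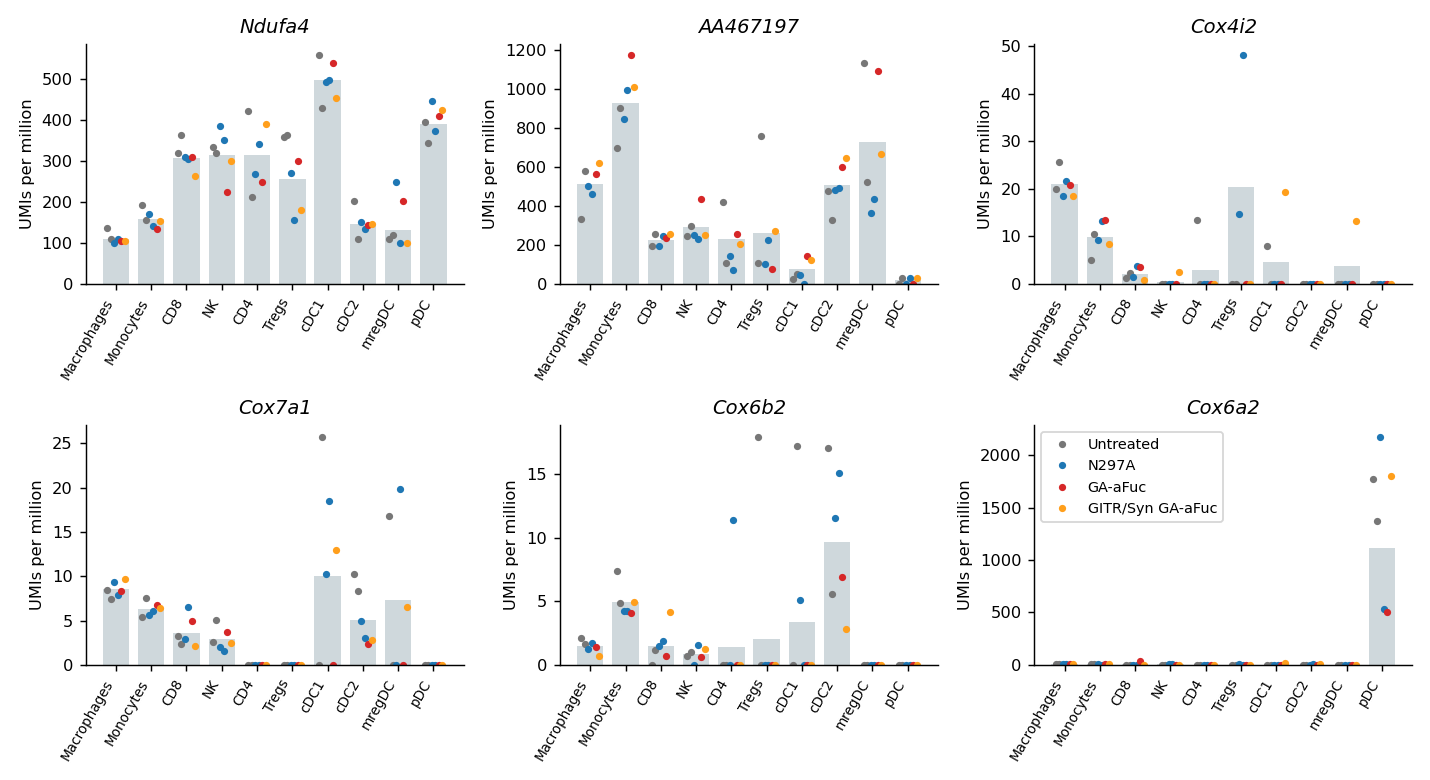
CPM (vertical axis, a separate scale per gene) of Ndufa4, AA467197 and 4 complex IV isoforms in 10 cell types, with bars for the pooled level and 1 point per mouse coloured by treatment. Ndufa4 is lowest in macrophages (110) and highest in cDC1 (497 pooled), and Cox6a2 reaches 1118 in pDC against pooled levels of 8.12 or less elsewhere.

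Other mitochondrial gene lists were counted in the same fits. Shares over all genes, higher and lower, were 24.5% and 30.7% for macrophages against monocytes and 36.5% and 36.3% for CD8 T cells against macrophages. They were 15.4% and 15.2% for CD8 T cells against NK cells and 15.8% and 22.8% for cDC2 against monocytes. Counts near these shares are not particular to a list. Between macrophages and monocytes, higher and lower genes numbered 16 and 2 of 27 mitochondrial ribosomal proteins, 5 and 2 of 18 enzymes of the TCA cycle, 6 and 2 of 14 carriers, 14 and 3 of 29 assembly factors that the symbols do not take in, 2 and 2 of 11 regulators, and 5 and 4 of 16 stress and antioxidant genes. Glycolysis had 0 higher and 8 lower of 15, and hypoxia targets 2 and 6 of 12. Mrpl13 was at 86.0 against 43.4 CPM (log2 difference 0.85), and Slc25a4, an ADP/ATP carrier, at 129 against 53.1 (1.16). Slc16a3, a lactate exporter, was at 78.9 against 149 (-1.06), and the antioxidant enzyme Sod2 at 100 against 244 (-1.44). Between CD8 T cells and macrophages the lists gave 3 and 13 of 27 ribosomal proteins, 2 and 6 of 18 TCA enzymes, 4 and 9 of 14 carriers, 10 and 9 of 29 assembly factors, 6 and 4 of 11 regulators, 4 and 8 of 16 stress genes, 4 and 7 of 15 glycolysis genes, 3 and 6 of 12 hypoxia targets and 14 and 0 of 20 cell cycle genes. Idh2 was at 6.00 in CD8 T cells against 53.6 in macrophages (log2 difference -3.23), Cox17, a copper chaperone of complex IV, at 632 against 231 (1.43), and Gabpb1, a subunit of GABP, at 60.2 against 18.5 (1.63). Between CD8 T cells and NK cells, glycolysis had 11 higher and 0 lower of 15, hypoxia targets 8 and 1 of 12, cell cycle 19 and 0 of 20 and the TCA cycle 0 and 4 of 18. Between cDC2 and monocytes, glycolysis had 1 higher and 12 lower of 15 and hypoxia targets 0 and 8 of 12, while Mdh2 of the TCA cycle was at 298 against 117 (log2 difference 1.33).

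The deposited clusters were made from these cells' own genes, so their levels are a description. Among 55 clusters with at least 30 cells, the lowest nuclear sums were in macrophage cluster 9 (15151 CPM), monocyte cluster 49 (16618) and monocyte cluster 42 (16821). The highest were in macrophage cluster 61 (27979, 40 cells), CD8 cluster 33 (26363) and CD8 cluster 38 (25995). Cluster 9 had 12406 CPM on the mt- genes, 5000 on the hypoxia targets, the most of the 23 macrophage clusters, and 15146 on glycolysis. Its Ndufa4 was at 61.5 CPM, the lowest among macrophage clusters, and its Cox4i2 at 51.0. In all 6 mice its nuclear sum lay between 13122 and 17286. Over the 23 macrophage clusters the nuclear sum had a Spearman rho of 0.95 with the mitochondrial ribosome, 0.72 with the TCA cycle, 0.72 with the cell cycle list, 0.64 with the mt- genes, -0.29 with hypoxia targets and 0.22 with the median UMIs per cell. Clusters share mice, library and depth, and no p is given. Over the 15 monocyte clusters rho was 0.65 with the mitochondrial ribosome and 0.06 with the mt- genes, whose sum ranged from 8167 to 19595 CPM while the nuclear sum ranged from 16618 to 21597. Ndufa4 and AA467197 had a rho of -0.49 over macrophage clusters and -0.45 over monocyte clusters.

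**Figure D4:**
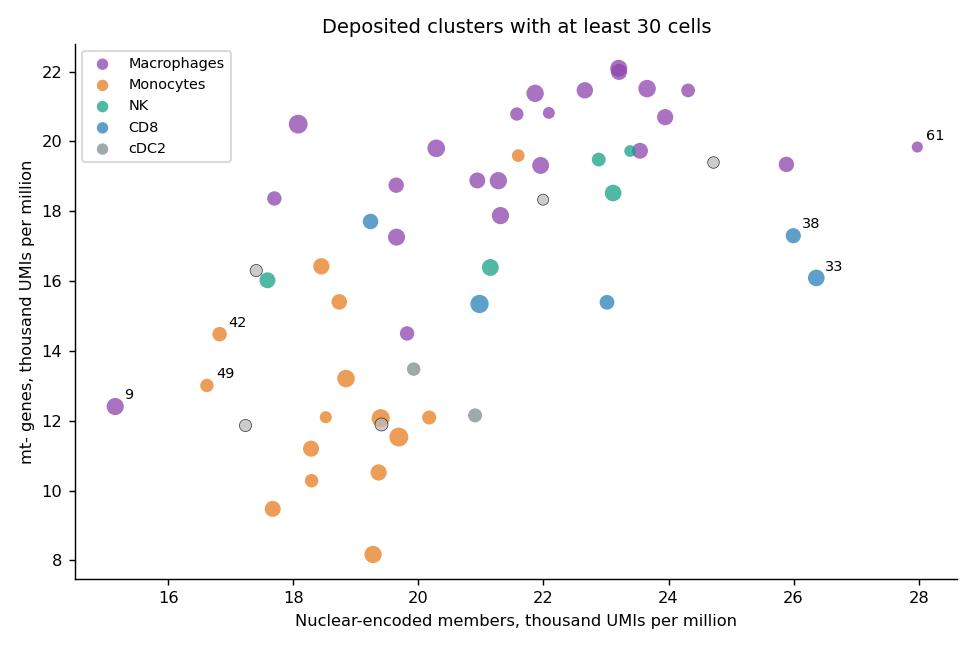
Nuclear-encoded members (horizontal axis) and mt- genes (vertical axis), in units of 1000 CPM, for deposited clusters with at least 30 cells, with colour for cell type, point size for cell number and outlined grey for other types. Macrophage cluster 9 (15151 and 12406) lies at the lower left, and CD8 clusters 33 and 38 combine high nuclear with middling mt- sums.

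Treatments were compared within 5 cell types, each fitted over the 6 mice with 2 residual degrees of freedom. The comparisons with Untreated share the 2 Untreated mice. Percentages in brackets are shares of all pairs past the adjusted test. For the counts at an unadjusted p under 0.05 the share over all genes is not given, so they are not read as differences. Over 461 member and cell type pairs, 0 passed in N297A against Untreated (0.0100% of all 49849 gene and cell type pairs), with 1 at an unadjusted p under 0.05. In GITR/Syn GA-aFuc against Untreated 0 passed (0.106%), with 13 at an unadjusted p under 0.05. In the Fc-enhanced mice (1 on GITR/Syn GA-aFuc, 1 on GA-aFuc) against the other 4 mice 0 passed (0.0762%), with 19. DESeq2 called 0 in each of these. In GA-aFuc against Untreated 1 passed (0.0863%), with 21 at an unadjusted p under 0.05: Cox6a2 in CD8 T cells, at 36.1 CPM in the GA-aFuc mouse, 0 and 0 in the Untreated, 0.481 and 0 in the N297A and 1.40 in the GITR/Syn GA-aFuc mouse (edgeR adjusted p = 6.2e-05). Of its 51 UMIs in that mouse, 46 came from 1 cell, which held UMIs of all 6 pDC markers and all 8 CD8 T cell markers and had 97.9% of its hashtag UMIs on 1 hashtag. Without that cell, with DESeq2, or without either Untreated mouse, 0 members passed. In the Fc-enhanced comparison the same gene in CD8 T cells (adjusted p = 0.262) was the 1 member that passed without either N297A mouse, without the GITR/Syn GA-aFuc mouse or without a filter on low counts.

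Macrophages of both Fc-enhanced mice had lower member sums than those of the other mice. The nuclear sum was 22541 and 22499 CPM in the Untreated mice, 21348 and 21942 in the N297A mice, 20125 in the GA-aFuc mouse and 20406 in the GITR/Syn GA-aFuc mouse. Both Fc-enhanced values lay below the other 4, also within each of the 5 complexes and the assembly factors. These 2 mice also had the lowest median depth per macrophage, 14936 (GA-aFuc) and 13813 UMIs (GITR/Syn GA-aFuc) against 15111 to 15952 in the others. With macrophages split into 3 equal groups by UMIs per cell, their nuclear sums were 18892 and 19103 CPM in the shallowest group (20379 to 21574 in the others), 19348 and 20511 in the middle group (21073 to 22330) and 21335 and 21551 in the deepest group (21889 to 23344). Both mice lay below all 4 others in each group. Depth was not equal within the groups. Median UMIs per cell in GA-aFuc and GITR/Syn GA-aFuc were 20321.5 and 19681 in the deepest group (20378 to 20983 in the others). They were 15201.5 and 15192 in the middle group (15101.5 to 15428) and 11097 and 10604 in the shallowest (11025 to 11424). The part of depth in these sums was not tested. Of 96 members tested, 92 had a log2 difference below 0 (95.8%, against 51.4% of all genes). The median over the 96 was -0.14, against -0.01 over all genes. Both mice lay below all 4 others for 59 members (6.54% of all genes did) and above them for 1 (9.23%). These members share the 2 mice, so they are not separate observations, and no member passed the adjusted test (smallest adjusted p = 0.947, edgeR).

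Atp5o, a subunit of the stalk that holds the ATP synthase's head, had the smallest p in macrophages. It was at 241 and 247 CPM in the Untreated mice, 231 and 245 in the N297A mice, 204 in the GA-aFuc mouse and 206 in the GITR/Syn GA-aFuc mouse (log2 difference -0.26, SE 0.09, edgeR adjusted p = 0.947). Cox7b, a structural subunit of complex IV, was at 387, 399, 376 and 371 in the 4 other mice and at 334 and 336 in the Fc-enhanced mice (log2 difference -0.21). Against the Untreated mice alone, the macrophage median was -0.20 in the GA-aFuc mouse (90 of 96 members below 0), -0.15 in the GITR/Syn GA-aFuc mouse (92 of 96) and -0.06 in the N297A mice (84 of 96). The share of all genes below 0 is not given for these comparisons with Untreated. Ndufaf8, an assembly factor of complex I, had the smallest p in GA-aFuc macrophages (log2 difference -0.33, SE 0.11, edgeR adjusted p = 0.845).

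Other gene lists were summed in the same macrophages. All 20 cell cycle genes had a log2 difference below 0 in the Fc-enhanced mice (median -0.36), with sums of 1943 and 1960 CPM in the Untreated, 1622 and 2002 in the N297A, 1731 in the GA-aFuc and 1349 in the GITR/Syn GA-aFuc mouse. The difference was below 0 for 26 of 27 mitochondrial ribosomal proteins (median -0.12), for 12 of 13 mt- genes (-0.12) and for 15 of 18 TCA enzymes (-0.06). It was above 0 for 12 of 13 hypoxia targets (median 0.26), with sums of 1326, 1664, 1579 and 1508 in the 4 other mice and 1745 and 1748 in the Fc-enhanced mice, and for 14 of 16 glycolysis genes (0.09). No gene of these lists passed the adjusted test, and their part in the member sums was not tested. Cluster 9 took 3.02% and 6.23% of macrophages in the Untreated, 5.22% and 3.87% in the N297A, 6.44% in the GA-aFuc and 7.99% in the GITR/Syn GA-aFuc mouse. Without its cells the nuclear sums of the Fc-enhanced mice were 20380 and 20892, against 21627 to 22743 in the others. With every macrophage cluster given equal weight they were 20661 and 20940, against 21786 to 22823. Of 23 clusters with at least 5 cells in each mouse, the mean of the Fc-enhanced mice was below that of the others in 22. Both Fc-enhanced mice lay below all 4 others in 9 and above them in 0. The clusters share the same mice, so they are not separate observations, and no share over other genes is given. The part of cluster composition in the sums was not tested.

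In monocytes the nuclear sums were 20111 and 19170 (Untreated), 19015 and 18696 (N297A), 18470 with GA-aFuc and 17651 with GITR/Syn GA-aFuc, with a member median of -0.10 and 85 of 96 below 0. Both Fc-enhanced mice lay below all 4 others for 28 members (7.76% of all genes) and above for 1 (10.2%), and without the GA-aFuc mouse, where 1 mouse is set against 4, the count below was 62 (22.4% of all genes lay below in that setting). Atp5g1 in monocytes was at 314 and 311, 285 and 282, and 262 and 240 in the same order (log2 difference -0.26, SE 0.08, edgeR adjusted p = 0.41). With monocytes split into 3 groups by UMIs per cell, nuclear sums of both Fc-enhanced mice were the lowest in the shallowest and deepest groups. In the middle group the GA-aFuc mouse, at 19094 CPM, lay above the second Untreated mouse (18847) and both N297A mice (18916 and 18689). In monocytes the difference was above 0 for 12 of 12 hypoxia targets and 16 of 16 glycolysis genes, none past the adjusted test, while the mt- genes had a median of 0.04. In CD8 T cells the sums overlapped, at 24422 and 22766 in the Fc-enhanced mice and 22999 to 24051 in the others, with a median of -0.03, 5 members below (6.68%) and 5 above (5.90%). In NK cells the median was 0.07, with 16 of 92 below 0, 3 members without overlap below (11.2%) and 5 above (5.67%). The NK cells of the Fc-enhanced mice were deeper, at a median of 11262 (GA-aFuc) and 10212 UMIs (GITR/Syn GA-aFuc). The other mice had 6426 to 7320.5. Nuclear sums were higher in deeper NK cells, and the part of depth in the NK median was not tested. Ndufa4 in NK cells was at 333 and 320 (Untreated), 385 and 352 (N297A), 225 with GA-aFuc and 300 with GITR/Syn GA-aFuc, below all others in both Fc-enhanced mice (log2 difference -0.36, SE 0.11, edgeR adjusted p = 0.383). In cDC2, with 26 or more cells per mouse, the median was -0.09, with 4 members below (5.05%) and 6 above (7.54%). For the counts of genes above or below 0 in monocytes and NK cells, the share over all genes is not given. Whether the effect differs between cell types was not tested.

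**Figure D5:**
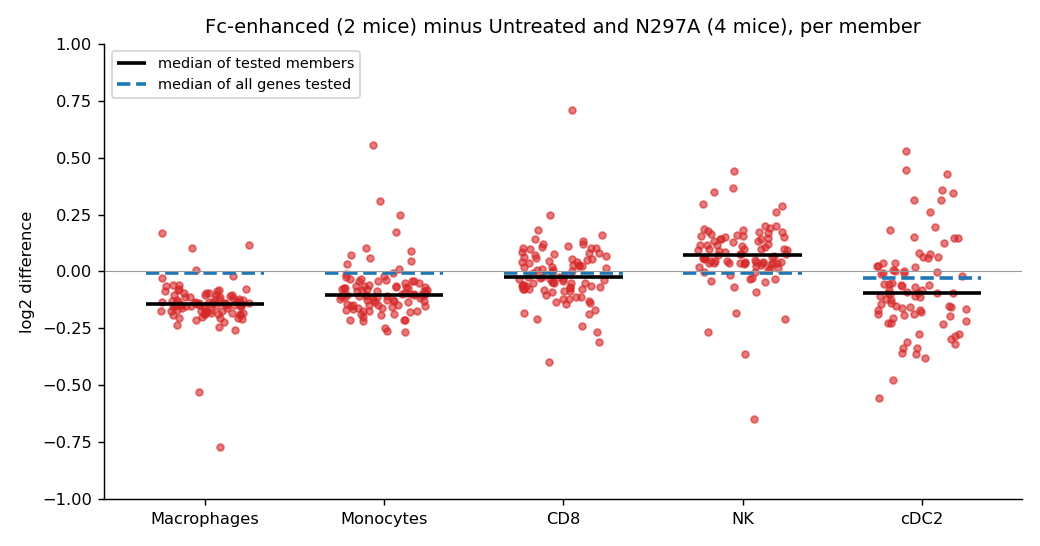
Log2 difference (vertical axis) of each tested member between the 2 Fc-enhanced mice and the 4 Untreated and N297A mice in 5 cell types, with the median of members (black) and of all genes tested (dashed). The macrophage median is -0.14 and the NK median 0.07, 1 CD8 and 1 NK member lie outside the axis, and no member passed the adjusted test in this comparison.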

How the data were processed

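One 10x 3′ library of CD45+ tumour cells and its hashtag library were analysed. The deposited values are raw UMI counts per feature and barcode from Cell Ranger 9.0.0, per the file headers, against GRCh38 and GRCm39, per the submitters' processing notes. The matrix held 72308 features and 2965363 barcodes. Of 19210 entries in the authors' cell table, 18336 had a barcode in the matrix and 8767 had at least 1000 mouse UMIs. Then 33 whose top hashtag went with another treatment and 18 repeated entries were left out, leaving 8716 cells. Cell types and clusters are the authors' own, and no doublet caller was run.

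UMIs of each mouse were added up within a cell type and tested with edgeR 4.0.16 (quasi-likelihood, TMM, low-count filter, R 4.3.3), with mouse as a block between cell types, and with DESeq2 1.42.0 as an alternative. The same mice supply every cell type, which is where that pairing comes from. Values are counts per-million mouse UMIs (CPM), and the test script was checked on simulated data. Sums used Python 3.11.15, numpy 2.4.6, pandas 2.3.3 and scipy 1.17.1. Nothing in the labels states separate cultures or litters beyond the hashtags, so p-values refer to these 6 mice only. Between cell types they rest on the spread left after the mouse block. In the treatment fits they rest on the spread within the Untreated and the N297A mice, with information shared between genes. A treatment with a single mouse adds none. Intervals and limits cover counting error only. Genes were named by a rule: per comparison, the member with the largest difference in each direction per complex among those past 0.05 with at least 10 CPM, the tissue isoform groups of complex IV and V (Cox7b among them), the 4 Sdh subunits, the 3 most abundant per complex and the smallest-p member per treatment fit. The members and lists were chosen with earlier results of these data known.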

Additional observations from a re-analysis of the deposited data

Results flagged for a closer look

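The library was aligned to human and mouse genomes together. Over the 8716 cells, 24 UMIs fell on 108 human features whose symbols begin like those of the members, above the 3 that a count of 0 allows, with at most 9 on 1 feature. The mouse members held 2320470 UMIs in the same cells, and human MT- features held 1 UMI. No mouse stood apart from the other 5 in the nuclear or mt- sums of the 5 main cell types (10 groups of 6 mice, Dixon's test).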

How the results depend on the processing

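Of 263 alternatives for the sums and counts, 222 kept the main value within its spread or within 1.5 times, and 41 did not. The 222 include the cell type means of the nuclear and mt- sums with each mouse left out in turn. Leaving out a single mouse cannot move such a mean beyond the spread between the mice. These alternatives could only be counted as kept, so they say nothing about stability. Of 827 alternatives over 70 results on named members and on the macrophage sums of each mouse, 786 left the verdict unchanged. A call was lost in 36, gained in 5 and reversed in 0. The unchanged ones include members that were not called at first and stayed so, and the macrophage sums with clusters weighted equally. Members higher in macrophages than in monocytes numbered 60 without scaling, and members lower 3 without scaling, 5 without mt- and ribosomal genes and 5 without a low-count filter. In CD8 T cells against NK cells, members lower numbered 4 with DESeq2 size factors, 4 without scaling and 3 without a filter, and members higher 12 without a filter. Without a filter, 12 members were higher in CD8 T cells than in macrophages, and 5 were higher and 12 lower in cDC2 than in monocytes. Members lower in cDC2 were 3 with size factors, 3 without mt- and ribosomal genes and 3 with the DESeq2 test. GA-aFuc against Untreated gave 0 members with the DESeq2 test and 0 without the top Cox6a2 cell, and the Fc-enhanced comparison 1 without a filter. The cause was not tested.

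Relative to UMIs outside mt- and ribosomal genes, in CPM, the nuclear sums were 26069 (macrophages), 22174 (monocytes), 31070 (CD8), 30136 (NK) and 25410 (cDC2). Outside ribosomal genes the mt- sums were 23351, 14161, 20795, 24068 and 16140 in the same order, higher by construction. NK cells then lay above macrophages, the reverse of their order over all mouse UMIs. With each mouse left out in turn, members called ranged from 0 to 1 for GA-aFuc and for the Fc-enhanced comparison. Members higher ranged from 32 to 44 (macrophages over monocytes), 8 to 17 (CD8 over NK), 17 to 25 (CD8 over macrophages) and 16 to 24 (cDC2 over monocytes). Members lower ranged from 5 to 9, 4 to 7, 28 to 33 and 4 to 6 in that order. Members below without overlap ranged from 59 to 76 in macrophages and from 29 to 62 in monocytes. The share of all genes below changes with the number of mice compared. In monocytes it was 7.76% with 2 mice against 4 and 22.4% with the GITR/Syn GA-aFuc mouse alone against 4. For the other settings with a mouse left out it is not given, so these ranges have no background beside them. Alternatives on single cells, depth groups, equal cluster weights and mice left out of the sums were chosen after seeing the data. With 26 cDC2 in the smallest mouse and 2 residual degrees of freedom, small treatment differences were not detectable.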
